A study of Mus musculus with 13 samples.

Results

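The endoplasmic reticulum chaperone genes Hspa5, Hyou1, Hsp90b1, Pdia4, Pdia6, Dnajb9, Sdf2l1, Creld2, Manf and Calr were examined in mouse inguinal white adipose tissue, a fat depot under the skin of the groin. They were taken by name, 10 of the 54532 genes measured. Each name had 1 row, and all 10 passed the filter on low values, 3 or more libraries with an FPKM of 1 or more, which left 14421 genes to test. FPKM is a gene's read number scaled by its length and by a total for the library. Total RNA of individual mice, taken after 12 h without food, gave 13 libraries. SF_HPD held 5 sleep-fragmented mice fed a high-protein diet, in which protein supplied 50% of the energy, fat 12% and carbohydrate 38%. SF_ConD held 5 mice with fragmented sleep on a matched chow, and SC_ConD held 3 mice with normal sleep on that chow. No source used here gives the strain, sex or age, or how and for how long sleep was fragmented.

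The endoplasmic reticulum is where secreted and membrane proteins fold. Chaperones hold unfolded chains, disulfide isomerases join their cysteines, and lectin chaperones retain glycoproteins until they are folded. When unfolded chains accumulate, the sensors ATF6, IRE1 and PERK start the unfolded protein response, in which ATF6 and XBP1 raise transcription of many chaperone genes. ATF6 acts with the factor NF-Y at a promoter motif called the ER stress response element (ERSE). Fat cells secrete adipokines and lipoprotein lipase through this compartment. In liver and in plasma cells, which export protein in bulk, the same genes are strongly expressed.

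The ERSE is the feature that the promoters of several of these genes share, so its copies are shown with their surroundings. RefSeq promoter sequences (GRCm38.p6) were at hand for 8 of the 10 genes, not for Hyou1 or Manf. The 250 bases before each start were searched on both strands for the ERSE, which is CCAAT and CCACG with any 9 bases between them, and 5 of the 8 held it: Hspa5, Hsp90b1, Pdia6, Creld2 and Calr. Of 32851 mouse promoter windows of that length, 37 held it, or 0.113%. Capitals mark the CCAAT and CCACG letters of each copy, or their reverse complements ATTGG and CGTGG, and each line reads 5′ to 3′ on the strand of its gene.
Hspa5, chr2:34772010-34772058, plus strand: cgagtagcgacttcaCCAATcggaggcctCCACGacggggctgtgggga
Hsp90b1, chr10:86705518-86705671, minus strand: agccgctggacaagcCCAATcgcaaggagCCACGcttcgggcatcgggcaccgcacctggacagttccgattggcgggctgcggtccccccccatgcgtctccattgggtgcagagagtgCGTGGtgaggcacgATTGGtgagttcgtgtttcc
Pdia6, chr12:17266476-17266524, plus strand: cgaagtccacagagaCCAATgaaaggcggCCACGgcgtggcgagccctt
Creld2, chr15:88819505-88819553, plus strand: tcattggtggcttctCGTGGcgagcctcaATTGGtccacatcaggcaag
Calr, chr8:84847060-84847108, minus strand: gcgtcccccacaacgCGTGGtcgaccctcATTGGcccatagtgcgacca
The copies ended 47 bases before the start in Hspa5, 80 in Pdia6, 108 in Creld2 and 144 in Calr, counted from the RefSeq start. Hsp90b1 held a pair of copies, in opposite orientations, which ended 194 and 89 bases before its start. In Hspa5 the RefSeq start lies 120 bases after the start of the gene model in the deposited table, so its copy lies inside that model, while the copies of the other 4 genes lie before both starts. The copies of Creld2 and Calr read on the opposite strand to the gene.

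Pdia4, Dnajb9 and Sdf2l1 held no full ERSE in these 250 bases, although CCAAT occurred in each of them. The shorter CCACG, a part of the ERSE, occurred in Dnajb9 and Sdf2l1 but not in Pdia4. CCAAT alone was in 33.8% of all windows and CCACG alone in 28.3%, so these parts are common. The related motifs ERSE-II (ATTGG and CCACG with any 1 base between them) and UPRE (TGACGTGG) were in none of the 8 windows on either strand, and in 0.0304% and 0.563% of all windows. A match describes the letters only and is no measure of binding in this tissue.

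Read totals over genes, worked back from FPKM, were 14815592 to 18303302 per library, and the 10 genes held 61 to 6645 reads each per library. Genes of other tissues differed strongly within groups. The summed FPKM of 12 liver markers was 65.4 to 185 in SF_HPD, 94.9 to 467 in SF_ConD and 136 to 16044 in SC_ConD, where SC_ConD 2 and 3 held 16044 and 6655. Of those 12 markers 3 were at 0 in SF_HPD 2 and none in the other 12 libraries. Plasma cell markers summed to 47.7 to 1205 FPKM in SF_HPD, 38.2 to 4463 FPKM in SF_ConD and 33.1 to 102 FPKM in SC_ConD. B cell and lymph node markers summed to 2.01 to 1123, 2.07 to 2486 and 1.99 to 15.7 FPKM in these groups. T cell markers summed to 1.13 to 304, 2.73 to 514 and 3.35 to 21.3 FPKM. Each of these lists was highest in SF_ConD 1, 4 and 5 and SF_HPD 4 and 5. Plasma cells therefore cannot be told apart here from other lymphoid cells. The mean log2(FPKM + 1) over adipocyte markers was 3.72 in SF_HPD 2, while the other 12 libraries were at 7.64 or more, so SF_HPD 2 stands apart from its tissue label. Its 8 mammary and other epithelial markers summed to 6544 FPKM, against 2.90 to 1184 FPKM in the other 12 libraries. The 8 skeletal muscle markers summed to 17171 FPKM in SF_HPD 4, more than its 4095 FPKM of adipocyte markers, to 3000 FPKM in SC_ConD 3 and to 3.96 to 242 FPKM in the other 11 libraries. The FPKM sums of the libraries differed 5.03-fold, while median-of-ratios factors computed on FPKM lay between 0.98 and 1.07, so the deposited values were already balanced for most genes.

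**Figure D1:**
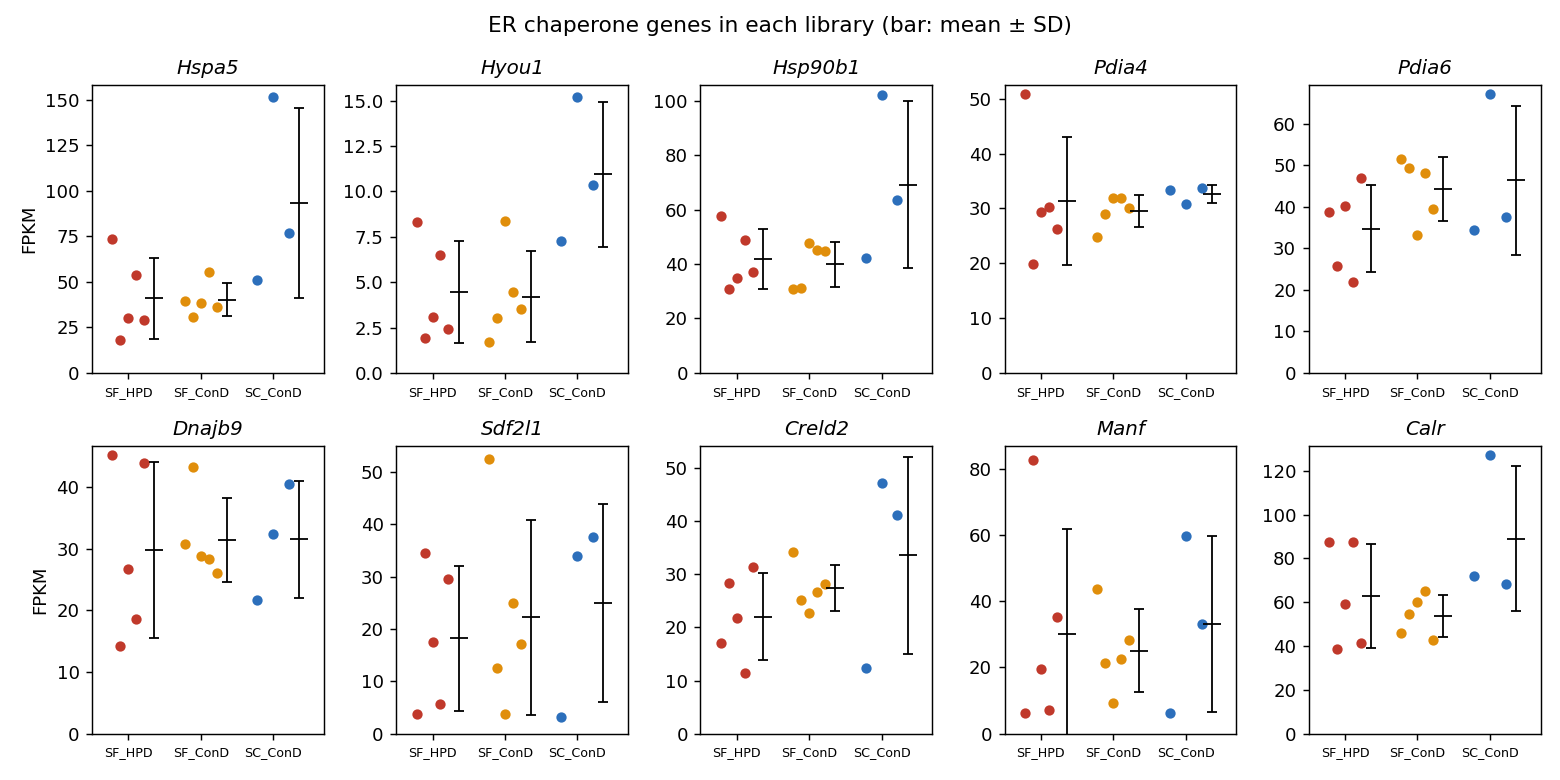
Each panel shows 1 gene and each point 1 library, by its FPKM on a linear axis from 0, with SF_HPD at the left, then SF_ConD and SC_ConD, and bars of mean ± SD (n = 5, 5 and 3; the bar of Manf in SF_HPD is clipped at 0). Hspa5 and Hyou1 are highest in SC_ConD 2 (151 and 15.2 FPKM), and Sdf2l1 and Manf spread 16.1-fold and 13.4-fold over the 13 libraries.

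Per length, Calr was the most abundant of the 10 genes, with a median of 60.1 FPKM over the 13 libraries. Hsp90b1 followed at 44.6, Hspa5 at 39.8, Pdia6 at 39.4, Pdia4 at 30.2, Dnajb9 at 28.8, Creld2 at 26.6, Manf at 22.6, Sdf2l1 at 17.5 and Hyou1 at 4.43 FPKM. Only the gap between Calr and Hsp90b1 went beyond the spread over libraries: the mean difference of their log2(FPKM + 1) was 0.46 (SD 0.29), and Calr was higher in 12 of 13 libraries. The other neighbours in this order did not differ beyond 1 SD of their difference. Pdia4 had the narrowest span of levels, 2.56-fold between its lowest and highest library. Hspa5 spanned 8.30-fold and Hyou1 8.99-fold, and only Manf and Sdf2l1 spanned more.

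Hspa5 encodes BiP, the Hsp70 chaperone of the compartment and the partner that holds the stress sensors inactive (ENSMUSG00000026864, chr2:34771970-34777547 on GRCm38, plus strand). It was at 73.6, 18.2, 29.9, 53.8 and 29.2 FPKM in SF_HPD 1 to 5, at 39.8, 30.9, 38.6, 55.2 and 36.1 FPKM in SF_ConD 1 to 5, and at 51.0, 151 and 77.0 FPKM in SC_ConD 1 to 3. SC_ConD 2 was highest, and SC_ConD 1 lay within the range of both sleep-fragmented groups. Hyou1, the large Hsp70-like protein that exchanges the nucleotide of BiP (ENSMUSG00000032115, chr9:44379490-44392369, plus strand), was at 8.33, 1.92, 3.06, 6.50 and 2.43 FPKM in SF_HPD, at 1.69, 3.03, 8.36, 4.43 and 3.54 FPKM in SF_ConD, and at 7.29, 15.2 and 10.3 FPKM in SC_ConD. SC_ConD 2 and 3 were above all 10 sleep-fragmented libraries, and SC_ConD 1 was below SF_HPD 1 and SF_ConD 3. Dnajb9, the co-chaperone ERdj4 that delivers clients to BiP (ENSMUSG00000014905, chr12:44205559-44210326, minus strand), ran from 14.2 to 45.2 FPKM in SF_HPD, 26.0 to 43.3 FPKM in SF_ConD and 21.6 to 40.5 FPKM in SC_ConD. The 3 groups of Dnajb9 overlapped broadly.

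Sdf2l1, which works with the BiP co-chaperones (ENSMUSG00000022769, chr16:17130138-17132383, minus strand), was at 3.68, 34.5, 17.5, 5.70 and 29.5 FPKM in SF_HPD, at 52.5, 12.6, 3.73, 24.999 and 17.2 FPKM in SF_ConD, and at 3.27, 34.0 and 37.5 FPKM in SC_ConD. Each group held at least 1 library at or under 5.70 FPKM and 1 at or over 34.0 FPKM, so the spread lay within groups. Manf, a small secreted protein that binds BiP (ENSMUSG00000032575, chr9:106838312-106891979, minus strand), was at 6.15, 82.7, 19.6, 7.04 and 35.1 FPKM in SF_HPD, at 43.7, 21.2, 9.28, 22.6 and 28.3 FPKM in SF_ConD, and at 6.36, 59.8 and 33.2 FPKM in SC_ConD. Its low libraries were the same 4 as those of Sdf2l1: SF_HPD 1 and 4, SF_ConD 3 and SC_ConD 1. Creld2, a secreted ER stress protein with disulfide isomerase activity (ENSMUSG00000023272, chr15:88819646-88826683, plus strand), ran from 11.4 to 31.5 FPKM in SF_HPD, 22.7 to 34.1 FPKM in SF_ConD and 12.4 to 47.1 FPKM in SC_ConD. Within SC_ConD, Creld2 was at 12.4 FPKM in SC_ConD 1 and at 47.1 and 41.2 FPKM in SC_ConD 2 and 3.

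Hsp90b1 encodes GRP94, the Hsp90 chaperone of the compartment (ENSMUSG00000020048, chr10:86690209-86705509, minus strand). It was at 57.5, 31.0, 35.0, 48.8 and 37.0 FPKM in SF_HPD, at 30.8, 31.2, 47.6, 45.2 and 44.6 FPKM in SF_ConD, and at 42.0, 102 and 63.3 FPKM in SC_ConD. SC_ConD 2 and 3 were again above all 10 sleep-fragmented libraries, and SC_ConD 1 was within their range. Calr, the calcium-binding lectin chaperone calreticulin (ENSMUSG00000003814, chr8:84841850-84846934, minus strand), was at 87.5, 38.7, 59.3, 87.5 and 41.4 FPKM in SF_HPD, at 45.8, 54.7, 60.1, 65.2 and 42.8 FPKM in SF_ConD, and at 71.8, 127 and 68.2 FPKM in SC_ConD. Calr was the only one of the 10 genes in which SF_ConD and SC_ConD did not overlap, the gap lying between 65.2 FPKM in SF_ConD 4 and 68.2 FPKM in SC_ConD 3. Of all genes tested, 1.92% lay without overlap on that side. With every library rescaled to the same total (TPM), Calr was at 51.8 to 167 in SF_ConD and 91.2 to 198 in SC_ConD, which overlap. Of the disulfide isomerases, Pdia4 (ERp72; ENSMUSG00000025823, chr6:47796141-47813430, minus strand) ran from 19.9 to 51.0 FPKM in SF_HPD, 24.8 to 32.0 FPKM in SF_ConD and 30.8 to 33.8 FPKM in SC_ConD. Pdia6 (P5; ENSMUSG00000020571, chr12:17266545-17284770, plus strand) ran from 21.97 to 47.1 FPKM in SF_HPD, 33.2 to 51.5 FPKM in SF_ConD and 34.4 to 67.1 FPKM in SC_ConD. In both isomerases the 3 groups overlapped.

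Of the 10 gene models, 5 overlapped another model of the table. Manf spanned Rbm15b on its own strand (mean 5.17 FPKM) and Dcaf1 on the opposite strand (mean 2.04 FPKM), and Hsp90b1 overlapped the pseudogene 1810014B01Rik on the opposite strand (mean 3.76 FPKM). No source used here says whether counting used strand, so reads of these overlaps cannot be assigned with certainty. The overlapping models of Pdia4, Pdia6 and Dnajb9 averaged under 1 FPKM.

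**Figure D2:**
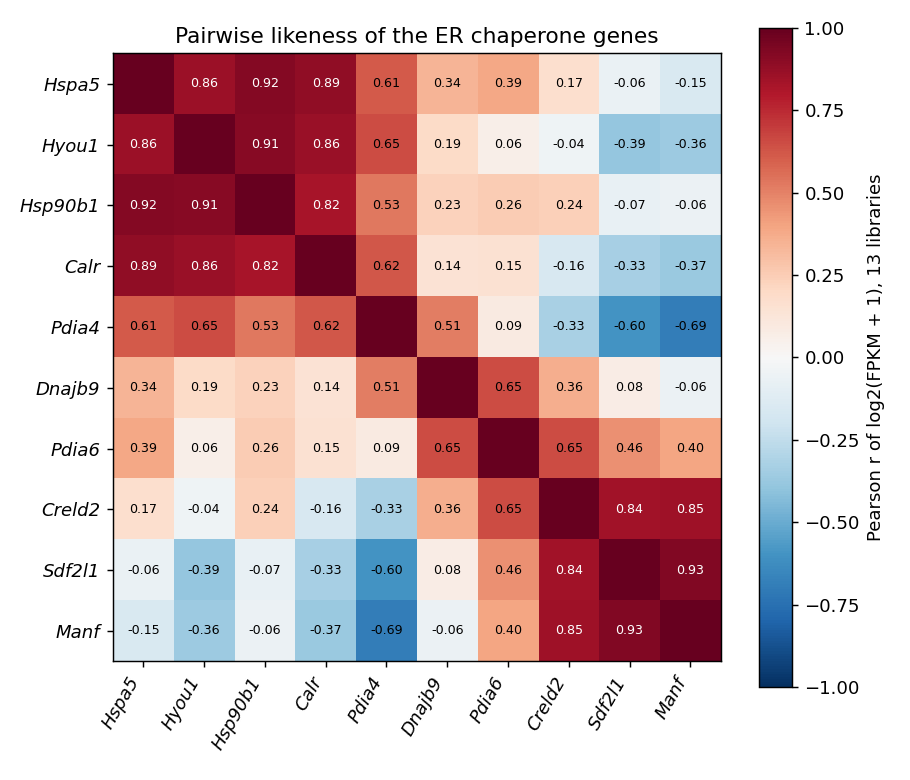
The grid gives Pearson r of log2(FPKM + 1) between each pair of the 10 genes over 13 libraries, from negative to positive along the colour scale. Hspa5, Hyou1, Hsp90b1 and Calr form a square of r between 0.82 and 0.92, and Sdf2l1, Creld2 and Manf another between 0.84 and 0.93, with values of -0.39 to 0.24 between the squares.

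The 10 genes did not vary as 1 unit across the 13 libraries. The level of Hspa5 followed those of Hsp90b1 (r = 0.92, rho = 0.81), Calr (r = 0.89, rho = 0.86) and Hyou1 (r = 0.86, rho = 0.78). Over the 6 pairs of these 4 genes r was 0.82 to 0.92 and rho 0.78 to 0.93. A second set, Sdf2l1, Creld2 and Manf, had r of 0.84 to 0.93 and rho of 0.87 to 0.90. Between the sets r was -0.39 to 0.24. Both sets were picked out after the values were seen, and the points share library depth, scaling and tissue content, so these are descriptions.

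Pdia4 lay with the first set (r 0.53 to 0.65, rho 0.76 to 0.85) and had r of -0.69 to -0.33 with the second. Pdia6 and Dnajb9 had r of at most 0.39 with the first set and at most 0.65 with the second. Of all 45 pairs 31 had a positive r, with a median of 0.24, which moved to 0.12 without SC_ConD 2. With each library expressed as its deviation from its group mean, r was 0.74 to 0.87 in the first set and 0.86 to 0.93 in the second. Without the 2 libraries farthest from the median of 1 gene of the pair, it was 0.65 to 0.87 and 0.76 to 0.88. Between the sets r was -0.58 to 0.17 on the deviations and -0.94 to 0.16 without those 2 libraries. Rescaling to TPM, which makes every library sum to the same total, gave 0.92 to 0.97 in the first set but -0.0794 to 0.843 in the second, and -0.67 to 0.69 between the sets. With TPM, r with the first set was 0.83 to 0.93 for Pdia4, 0.66 to 0.82 for Pdia6 and 0.68 to 0.78 for Dnajb9. It was 0.57 to 0.69 for Creld2, but -0.67 to -0.27 for Sdf2l1 and Manf. The second set as a unit therefore depends on the scaling, as does the distance of Pdia6, Dnajb9 and Creld2 from the first.

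**Figure D3:**
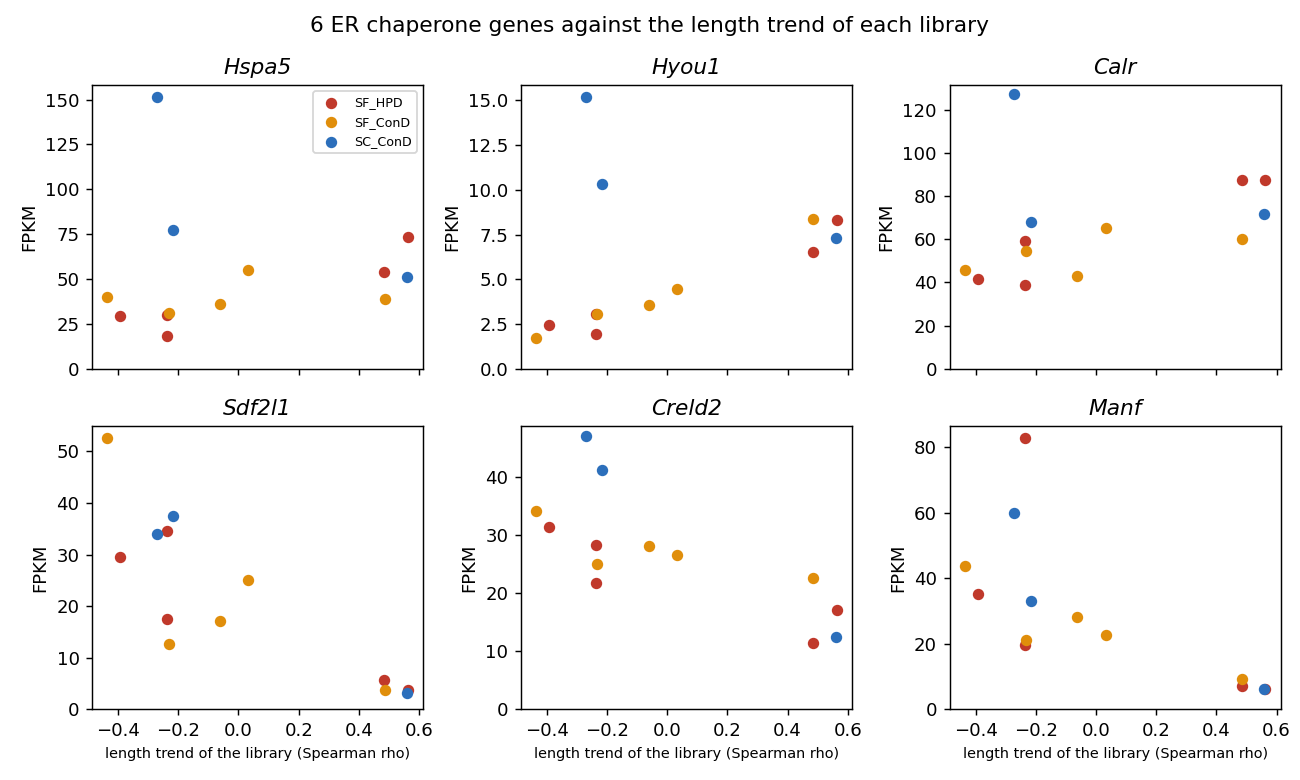
Each point is 1 library, placed by its length trend on the x axis (Spearman rho, over genes, of gene length with the library's deviation from the mean log2(FPKM + 1)) and by the FPKM of 1 of 6 genes on a linear y axis, coloured by group. In the 4 libraries with a trend of 0.48 to 0.56, Sdf2l1 lies at 3.27 to 5.70 FPKM and Manf at 6.15 to 9.28 FPKM, below the other 9 libraries.

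The level of Sdf2l1 and Manf split the libraries along their length trend, a measure of how far a library leans toward long genes. It was 0.48 to 0.56 in SF_HPD 1 and 4, SF_ConD 3 and SC_ConD 1, and -0.44 to 0.0319 in the other 9 libraries. Sdf2l1, whose gene model is 1108 bases long, was at 3.27 to 5.70 FPKM in those 4 libraries and at 12.6 to 52.5 FPKM in the other 9, without overlap. Manf, with a model of 3524 bases and a principal transcript of 2247, was at 6.15 to 9.28 FPKM against 19.6 to 82.7 FPKM, again without overlap. Creld2 (1366 bases) was at 11.4 to 22.7 FPKM against 21.8 to 47.1 FPKM, with a small overlap. The trend was itself computed from these FPKM values, over all genes kept. The share of all genes that split the libraries in this way is not given here. The split is therefore not shown to be particular to Sdf2l1 and Manf. In the first set Hyou1, the longest model at 7230 bases, was at 6.50 to 8.36 FPKM in the 4 libraries, inside the 1.69 to 15.2 FPKM of the other 9. Of those 9, SC_ConD 2 and 3 were above the 4 libraries, and the sleep-fragmented ones, at 1.69 to 4.43 FPKM, were below them.

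The ratio of Manf to Hyou1 FPKM was 0.739 to 1.11 in the 4 libraries with the long-gene trend and 3.21 to 43.1 in the other 9. The ratio of Sdf2l1 to Hspa5 was 0.04997 to 0.106 against 0.225 to 1.89. Each group held libraries of both kinds: SF_HPD 2 of 5, SF_ConD 1 of 5 and SC_ConD 1 of 3. RNA quality was not measured in the files, and its part in these levels was not tested.

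**Figure D4:**
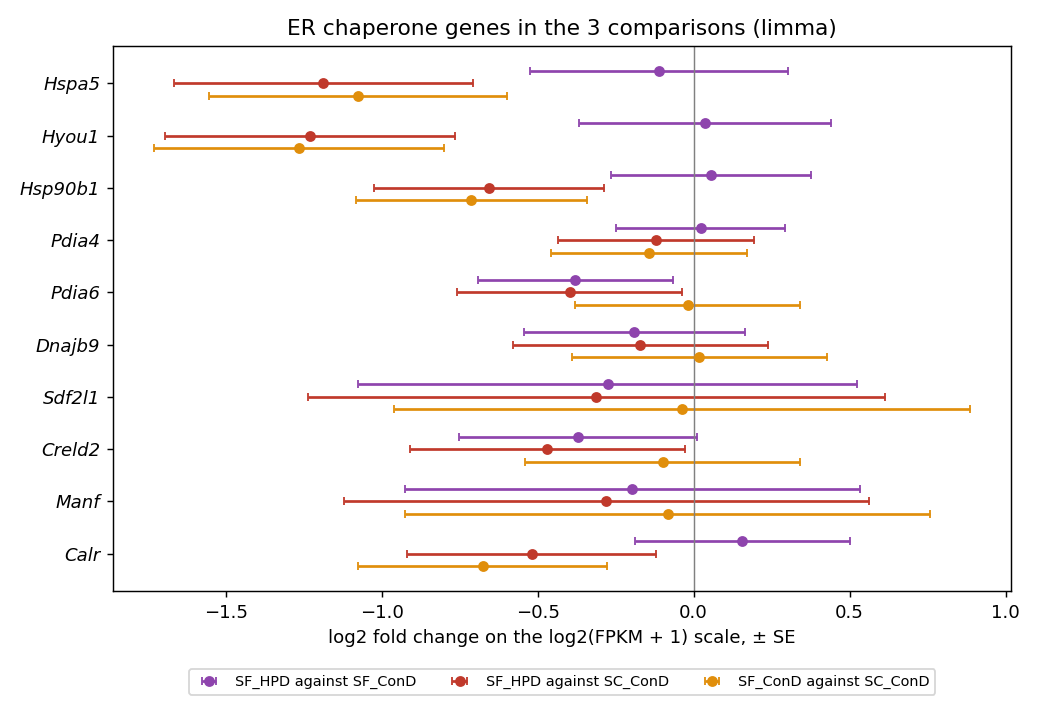
Points give each gene's log2 fold change on the log2(FPKM + 1) scale, with bars of 1 SE from limma, for SF_HPD against SF_ConD, SF_HPD against SC_ConD and SF_ConD against SC_ConD. Against SC_ConD, Hspa5 and Hyou1 lie between -1.27 and -1.08 in both sleep-fragmented groups, and between SF_HPD and SF_ConD the 10 genes lie between -0.38 and 0.16.

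The effect of the high-protein diet under fragmented sleep was addressed by SF_HPD against SF_ConD. The 10 genes had log2 fold changes between -0.38 and 0.16, and none passed the test. The largest difference was that of Pdia6, at 34.7 ± 10.5 FPKM in SF_HPD and 44.3 ± 7.74 FPKM in SF_ConD (SD, n = 5 each), a log2 fold change of -0.38 (SE 0.31). Hspa5 was at 40.9 ± 22.4 FPKM in SF_HPD and 40.1 ± 9.10 FPKM in SF_ConD, and Hyou1 was at 4.45 ± 2.81 FPKM in SF_HPD and 4.21 ± 2.52 FPKM in SF_ConD. Calr was at 62.9 ± 23.8 FPKM in SF_HPD and 53.7 ± 9.41 FPKM in SF_ConD, a log2 fold change of 0.16 (SE 0.35).

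Limma with Benjamini-Hochberg adjustment gave each of the 10 genes an adjusted p of 0.999994. It called 0 of 14421 genes (0%), with 273 at an unadjusted p under 0.05 (1.89%), against 0 calls and 251 genes at that level in limma-voom on the recovered reads. None of the 10 genes was among the 273. Both groups overlapped in all 10 genes, while 0.458% of all genes did not overlap. The median log2 fold change of the 10 genes was -0.15, against 0.01 over all genes tested, and 6 of 10 were negative, against 48.1% of all genes. Without SF_HPD 2, the library low in adipocyte markers, the median was 0.08 and the log2 fold change of Hspa5 0.13. Without SF_HPD 4, the library rich in muscle markers, Hspa5 was at -0.25 (SE 0.44) and Hyou1 at -0.12 (SE 0.42). The SEs of Sdf2l1 and Manf, 0.80 and 0.73, were the largest of the 10 and reflect their spread between libraries. With the length trend of each library as a covariate they were 0.32 and 0.36.

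The effect of fragmented sleep on chow was addressed by SF_ConD against SC_ConD. Hspa5 averaged 40.1 ± 9.10 FPKM in SF_ConD and 93.2 ± 52.2 FPKM in SC_ConD (SD, n = 5 and 3), and Hsp90b1 39.9 ± 8.20 FPKM in SF_ConD and 69.2 ± 30.5 FPKM in SC_ConD. Calr averaged 53.7 ± 9.41 FPKM in SF_ConD and 89.0 ± 33.0 FPKM in SC_ConD, and Hyou1 4.21 ± 2.52 FPKM in SF_ConD and 10.9 ± 3.99 FPKM in SC_ConD. None of these 4 genes passed the test. The other 6 genes had log2 fold changes between -0.14 and 0.02, all smaller than their SEs.

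The log2 fold change of Hyou1 was -1.27 (SE 0.47) with an unadjusted p of 0.0173 and an adjusted p of 0.805 in limma. That of Hspa5 was -1.08 (SE 0.48), with an unadjusted p of 0.0422 and an adjusted p of 0.861 in limma. Hsp90b1 was at -0.71 (SE 0.37) and Calr at -0.68 (SE 0.40), with limma adjusted p of 0.881 and 0.919. Limma called 0 of 14421 genes (0%), with 828 at an unadjusted p under 0.05 (5.74%), and limma-voom called 0, with 639 at that level. Leaving out SC_ConD 1 left SC_ConD 2 and 3, whose liver markers summed to 16044 and 6655 FPKM. Then 194 genes passed in limma, of which 5 were higher in SF_ConD, with 1465 at an unadjusted p under 0.05. None of the 10 genes was among the 194. With all 13 libraries, 2 of the 10 genes were at an unadjusted limma p under 0.05, Hyou1 and Hspa5. Both had lower means in SF_ConD, and 3.15% of all genes were lower there with an unadjusted limma p under 0.05. In 1 of the 10, Calr, the groups did not overlap in FPKM with SF_ConD lower, against 1.92% of all genes, though they overlapped in TPM. The median of the 10 log2 fold changes was -0.12, against -0.03 over all genes, and 9 of 10 were negative, against 52.6% of all genes. With median-of-ratios scaling 7 of the 10 were negative (49.3% of all genes), with limma-voom 5 (44.6%) and with TPM 4 (36.8%).

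With TPM the median of all genes itself moved to 0.16 in SF_ConD against SC_ConD, 0.05 in SF_HPD against SF_ConD and 0.25 in SF_HPD against SC_ConD. In SF_ConD against SC_ConD the median of the 10 genes was then 0.12. On that scale Hyou1 was at -1.11 (SE 0.83), Hspa5 at -0.84 (SE 0.77), Hsp90b1 at -0.47 (SE 0.63) and Calr at -0.44 (SE 0.73), so those 4 kept a negative sign relative to a positive median. In bulk tissue, fewer cells of a type and less RNA per cell cannot be told apart.

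**Figure D5:**
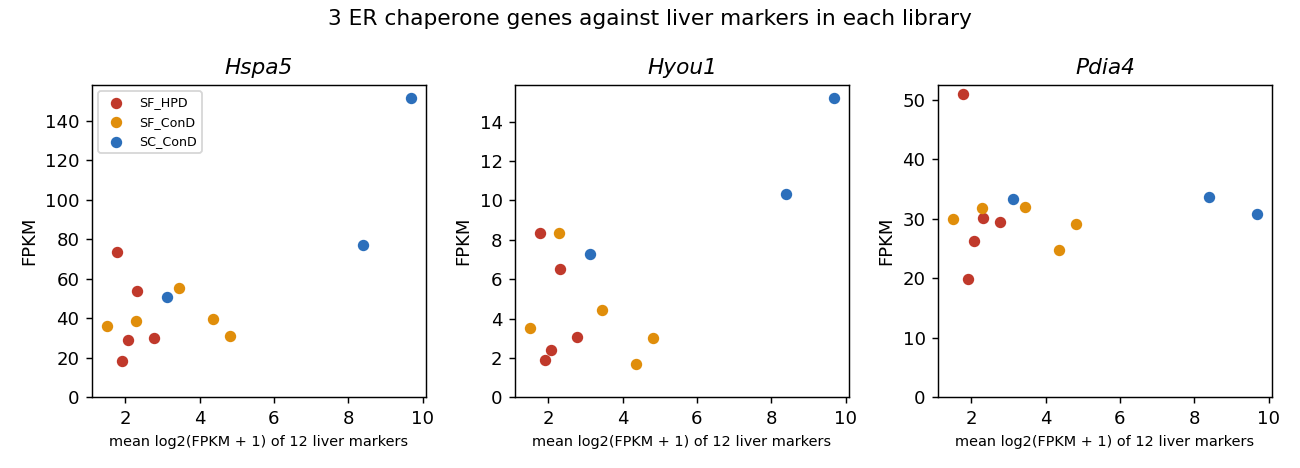
Each point is 1 library, by the mean log2(FPKM + 1) of 12 liver markers on the x axis and the FPKM of Hspa5, Hyou1 or Pdia4 on a linear y axis, coloured by group. SC_ConD 2 and 3, at 9.68 and 8.41 on the x axis, hold the highest Hspa5 values, 151 and 77.0 FPKM, with SF_HPD 1 next at 73.6 FPKM, while Pdia4 is at 30.8 and 33.8 FPKM there.

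In FPKM, the levels of Hspa5, Hyou1 and Hsp90b1 in SC_ConD were highest in the libraries with liver transcripts. This order depended on the scaling. In TPM, SC_ConD 1 was the highest SC_ConD library for Hyou1 (20.1) and Hsp90b1 (116). Hspa5 was at 140, 149.9 and 103 TPM in SC_ConD 1 to 3, and at 280 and 171 TPM in SF_HPD 1 and 4. The mean log2(FPKM + 1) of the 12 liver markers was 1.79 to 2.77 in SF_HPD and 1.52 to 4.81 in SF_ConD, against 9.68 in SC_ConD 2, 8.41 in SC_ConD 3 and 3.12 in SC_ConD 1. Alb, the serum albumin gene, was at 4223 and 1614 FPKM in SC_ConD 2 and 3. Without both, SF_ConD against SC_ConD gave log2 fold changes of -0.36 (SE 0.67) for Hspa5, -0.79 (SE 0.72) for Hyou1, -0.0984 (SE 0.50) for Hsp90b1 and -0.43 (SE 0.59) for Calr. Those of Sdf2l1, Creld2 and Manf were then 2.03, 1.07 and 1.67, with limma adjusted p of 0.819 each. The 1 SC_ConD library left, SC_ConD 1, is one of the 4 with a long-gene trend, and its spread was assumed to be that of the other groups.

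The differences of Hspa5, Hyou1, Hsp90b1 and Calr were larger when SC_ConD 1 alone was left out, with SC_ConD 2 and 3 left. The log2 fold change of Hspa5 was then -1.43 (SE 0.52), that of Hyou1 -1.50 (SE 0.53) and that of Hsp90b1 -1.02 (SE 0.39), with limma adjusted p of 0.347, 0.333 and 0.379. That of Calr was -0.80 (SE 0.46), and that of Pdia4 was -0.13, against -0.14 with SC_ConD 1. The median of the 10 genes was -0.88 without it, against 0.04 over all genes. Without SC_ConD 2 alone Hspa5 was at -0.66 (SE 0.51), Hyou1 at -1.02 (SE 0.53), Hsp90b1 at -0.39 (SE 0.39) and Calr at -0.39 (SE 0.43). Without SC_ConD 3 alone, which also holds liver transcripts, they were at -1.14 (SE 0.57), -1.28 (SE 0.56), -0.73 (SE 0.44) and -0.84 (SE 0.47), no smaller than with it. With the length trend of each library as a covariate, Hyou1 was at -1.20 (SE 0.37, adjusted p 0.274 in limma) and Hspa5 at -1.05 (SE 0.44, adjusted p 0.404). The part of liver transcripts beyond these values was not tested.

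SF_HPD against SC_ConD compared the mice that differed in both sleep and diet. It shares its SC_ConD libraries with the comparison above, so its values are given beside those and not as further support. Hspa5 averaged 40.9 ± 22.4 FPKM in SF_HPD and 93.2 ± 52.2 FPKM in SC_ConD (SD, n = 5 and 3), a log2 fold change of -1.19 (SE 0.48). Hyou1 averaged 4.45 ± 2.81 FPKM in SF_HPD and 10.9 ± 3.99 FPKM in SC_ConD, a log2 fold change of -1.23 (SE 0.47). Hsp90b1 was at -0.66 (SE 0.37) and Calr at -0.52 (SE 0.40). The remaining 6 genes lay between -0.47 for Creld2 and -0.12 for Pdia4.

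None of the 10 genes passed in SF_HPD against SC_ConD, with a limma adjusted p of 0.99991 each. Limma called 0 of 14421 genes (0%), with 531 at an unadjusted p under 0.05 (3.68%), and limma-voom called 0, with 470 at that level. Leaving out SC_ConD 1 left SC_ConD 2 and 3 with their liver transcripts. Then 196 genes passed in limma, of which 3 were higher in SF_HPD, with 1351 at an unadjusted p under 0.05. None of the 10 genes was among the 196. With all 13 libraries, Hyou1, with an unadjusted limma p of 0.0202, and Hspa5, with 0.0273, were the 2 of 10 genes at that level. Both were lower in SF_HPD, and 2.67% of all genes were lower there with an unadjusted limma p under 0.05. All 10 fold changes were negative, against 48.2% of all genes. With TPM 8 were negative, against 27.8% of all genes, those of Pdia4 and Dnajb9 being positive (0.14 and 0.0908). The groups overlapped in all 10 genes, while 1.64% of all genes did not overlap. The median was -0.43, against 0.02 over all genes, and it was -0.0417 without SC_ConD 2 and 3 and -1.01 without SC_ConD 1. Without SC_ConD 2 and 3, 6 of the 10 fold changes were negative, against 47.6% of all genes.

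The other genes of the folding pathway were read from 11 lists, and 0 genes of any list passed in limma in any comparison. In SF_ConD against SC_ConD, all 8 genes for retrieval and exit (KDEL receptors and coat proteins) had negative fold changes, with a median of -0.34. ER-associated degradation genes, which send misfolded protein to the proteasome, were negative in 13 of 14, with a median of -0.29. The other Hsp70 and Hsp40 genes of the compartment were negative in 7 of 8 (median -0.26), collagen folding genes in 7 of 9 (median -0.29), and the other disulfide isomerases and oxidases in 8 of 11 (median -0.14). Genes downstream of PERK and ATF4 were negative in 6 of 8 (median -0.70). Lectin chaperone genes were negative in 5 of 7, sensors and transcription factors of the response in 8 of 12, translocation genes in 8 of 13 and mitochondrial chaperones in 4 of 6. Cytosolic heat shock genes were positive in 7 of 11, with a median of 0.13. Over all genes tested 52.6% were negative and the median was -0.03, and the lists share the libraries of the 10 genes. These signs depended on scale and on libraries. With TPM, where 36.8% of all genes were negative, 5 of 8 retrieval and exit genes, 10 of 14 degradation genes, 5 of 8 other Hsp70 and Hsp40 genes, 6 of 9 collagen folding genes and 6 of 8 PERK and ATF4 genes were negative. The sensor, lectin, disulfide, translocation and mitochondrial lists then had positive medians, between 0.04 and 0.19, against 0.16 over all genes. Without SC_ConD 2 and 3 the median of the retrieval and exit genes was 0.36, that of the other disulfide isomerases 0.40 and that of the translocation genes 0.94, while that of the collagen folding genes was -0.56 and that of the heat shock genes -0.0983. The degradation genes were then negative in 7 of 14, with a median of -0.0934, and the other Hsp70 and Hsp40 genes in 5 of 8, with a median of -0.0814. Over all genes 46.9% were negative without SC_ConD 2 and 3, and the median was 0.0646.

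Syvn1, the ubiquitin ligase HRD1 of ER-associated degradation, was at 5.47 ± 2.87 FPKM in SF_ConD and 11.8 ± 1.14 FPKM in SC_ConD (SD, n = 5 and 3), without overlap. Its log2 fold change was -1.07 (SE 0.55), with a limma adjusted p of 0.881. Hspa13, an Hsp70 relative attached to the compartment's membranes, was at 2.93 ± 0.561 FPKM in SF_ConD and 5.53 ± 1.05 FPKM in SC_ConD, also without overlap, at -0.73 (SE 0.27, limma adjusted p 0.813). Its value over all alternatives run lay between -0.89 and -0.56, including that without SC_ConD 2 and 3. P4ha2, a subunit of the enzyme that hydroxylates collagen prolines, did not overlap either, at 1.09 ± 0.421 FPKM in SF_ConD and 2.41 ± 0.713 FPKM in SC_ConD. Dnaja1, a cytosolic Hsp40, was at 19.0 ± 5.57 FPKM in SF_ConD and 13.1 ± 0.792 FPKM in SC_ConD, without overlap and at 0.46 (SE 0.29). Groups without overlap were 3.6% of all genes in this comparison, so single genes of this kind are not rare.

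With the smallest p of their lists but overlapping groups were Chac1, an ATF4 target that degrades glutathione (-1.45, SE 0.79), and Sec24d, a coat subunit of vesicles leaving the compartment (-0.87, SE 0.40). Pdia5, a further disulfide isomerase, was at -0.74 (SE 0.32), the cargo lectin Lman1 at -0.63 (SE 0.33) and the mitochondrial protease Clpp at -0.75 (SE 0.65). Nfyc, a subunit of NF-Y, was at 0.49 (SE 0.27), and Spcs3, a subunit of signal peptidase, at 0.48 (SE 0.32). Their limma adjusted p lay between 0.861 and 0.99953 in SF_ConD against SC_ConD.

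In SF_HPD against SF_ConD the 11 list medians lay between -0.07 and 0.07. Kdelr3, a receptor that returns escaped chaperones from the Golgi, was at 4.69 ± 2.48 FPKM in SF_HPD and 2.12 ± 1.14 FPKM in SF_ConD (SD, n = 5 each), a log2 fold change of 0.85 (SE 0.39, limma adjusted p 0.999994). It was the only gene of the lists with an unadjusted p under 0.05 there. Nfya, another subunit of NF-Y, was at -0.71 (SE 0.42) and the heat shock gene Hspa1b, which shares reads with the near-identical Hspa1a and is uncertain, at -0.95 (SE 0.65). The collagen chaperone Serpinh1 was at 0.44 (SE 0.38), the serine synthesis gene Psat1 at 0.54 (SE 0.43), the glucosidase gene Mogs at -0.43 (SE 0.22) and the oxidase Ero1lb at -0.29 (SE 0.31). Sec63 (0.22), Spcs3 (-0.28) and Hspd1 (-0.10) had the smallest p of their lists.

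In SF_HPD against SC_ConD, Hspa13 was at 3.33 ± 1.08 FPKM in SF_HPD and 5.53 ± 1.05 FPKM in SC_ConD (SD, n = 5 and 3), again without overlap, at -0.62 (SE 0.27, limma adjusted p 0.99991). Trib3, a pseudokinase downstream of ATF4, was at -1.36 (SE 0.55), Syvn1 at -1.33 (SE 0.55) and Sec24d at -0.87 (SE 0.40). Each of these 3 overlapped between the groups, and Trib3 was at 0 FPKM in 1 SF_HPD library. Pdia5 (-0.67), Lman1 (-0.58), P4ha2 (-0.67), Clpp (-0.70), Sec61a1 (-0.25), Nfyc (0.33) and Hspa1b (-0.77) had the smallest p of their lists. All 8 of the other Hsp70 and Hsp40 genes and all 6 mitochondrial chaperones were negative, against 48.2% of all genes. Their medians were -0.12 each, against 0.02 over all genes. With TPM 3 of 8 and 2 of 6 were negative, where 27.8% of all genes were. Without SC_ConD 2 and 3 it was 5 of 8 and 4 of 6, against 47.6% of all genes. Of the 14 degradation genes 11 were negative (median -0.32), 7 with TPM, and 6 without SC_ConD 2 and 3. Without those libraries their median was 0.0151, against 0.0466 over all genes, of which 47.6% were negative.

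The genes whose levels were most like the mean of the 10 chaperone genes, over the 13 libraries, are known from liver. Of 9683 named genes averaging 2 FPKM or more, the highest r were those of the cytochrome Cyp2d9 (r = 0.93, rho = 0.52), the bile acid conjugating enzyme Baat (r = 0.92, rho = 0.77) and the complement relative Cfhr2 (r = 0.92, rho = 0.64). Slc25a47 (r = 0.92, rho = 0.75), the iron hormone gene Hamp (r = 0.91, rho = 0.68) and the tyrosine pathway gene Hpd (r = 0.91, rho = 0.73) followed. The mean of the 10 genes, each centred on its own mean log2(FPKM + 1), was 0.97 in SC_ConD 2 and 0.54 in SC_ConD 3, and between -0.42 and 0.14 in the other 11 libraries. Without SC_ConD 2 the r of Hspa5 with that mean was 0.37, against 0.69 with it, and that of Calr was -0.11, against 0.42. For Creld2 it was 0.79 without SC_ConD 2 and 0.81 with it.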

How the data were processed

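Total RNA of inguinal white adipose tissue from 13 individual mice was sequenced, per the labels' protocols. The authors deposited FPKM per gene with names, coordinates and lengths. CASAVA, HISAT2 2.0.5, featureCounts 1.5.0-p3 and the mouse build mm8 are named, with no role stated, per the submitters' processing notes. Of the 54532 gene identifiers, 54495 matched the GENCODE annotation of GRCm38, 53585 of them with identical ends, and coordinates are therefore given on GRCm38. No source used here gives the strand setting or the FPKM divisor.

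Tests used log2(FPKM + 1), a scale that understates the fold changes of low genes. The filter kept 14421 genes with 3 or more libraries at an FPKM of 1 or more. Group means were fitted over the 13 libraries with limma 3.58.1 (R 4.3.3; eBayes with trend and robust), tests were two-sided, and p-values were adjusted by Benjamini-Hochberg over the genes kept (threshold 0.05). These steps were also run on simulated reads, with the same spread setting for every gene. The simulated libraries held no differences in tissue content or length trend. That run is therefore no measure of power in the real libraries. Reads were recovered from FPKM, gene length and each library's smallest step. Whole reads, within a tolerance of 0.05, were obtained for 99.99% of values, and limma-voom was run on them with hand-written TMM factors. Every library pair differed beyond sampling noise (chi-square per degree of freedom of at least 71.2). Python 3.11.15, pandas 2.3.3, scipy 1.17.1 and matplotlib 3.10.9 were used.

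Same-numbered libraries of SF_HPD and SC_ConD deviated together (correlations 0.71, 0.33 and 0.19), all above 0.1. The values given come from the fit without a replicate block, and the fit with it was run as an alternative. The labels name no source of a pairing. Those of SF_ConD and SC_ConD were -0.56, 0.19 and -0.32, and those of SF_HPD and SF_ConD ran from -0.67 to 0.41.

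The 10 genes, the lists and the tests were chosen with earlier results of these data known. Besides the 10 genes, the text names from each list the gene with the smallest p in each comparison, and the 6 genes most like the mean of the 10. A gene that this rule names in SF_HPD against SF_ConD is not reported here. Rbm15b, Dcaf1, 1810014B01Rik and Alb were named after their values were seen. Precision is limited by the 3 to 5 mice per group.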

Additional observations from a re-analysis of the deposited data

How the results depend on the processing

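Under 19 or 20 alternatives per comparison none of the 10 chaperone genes passed, and their smallest adjusted p in limma were 0.274 in SF_ConD against SC_ConD, 0.939 in SF_HPD against SF_ConD and 0.319 in SF_HPD against SC_ConD. The cause of the changes below was not tested. With single libraries left out, genes passing numbered 0 to 194, 0 to 1 and 0 to 196 in these comparisons. The 194 and 196 were both without SC_ConD 1, with SC_ConD 2 and 3 and their liver transcripts left. Over the same single omissions, the median log2 fold change of the 10 genes ran from -0.88 to -0.0622, -0.20 to 0.0800 and -1.01 to -0.15. The median pairwise r ran from 0.12 to 0.35. Without SC_ConD 2 and 3 the median was 0.12 in SF_ConD against SC_ConD and -0.0417 in SF_HPD against SC_ConD, and the median r was 0.0682. Without the lymphoid-rich libraries (SF_ConD 1, 4 and 5, SF_HPD 4 and 5) the median was -0.64 in SF_ConD against SC_ConD and 0.0125 in SF_HPD against SF_ConD. With TPM the median in SF_ConD against SC_ConD was 0.12.

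Changes of sign in SF_ConD against SC_ConD were as follows. With TPM Pdia4 was at 0.0940, Pdia6 at 0.23, Sdf2l1 at 0.23, Creld2 at 0.15 and Manf at 0.17. With median-of-ratios scaling Pdia6 was at 0.0285 and Sdf2l1 at 0.00802. With limma-voom Pdia6 was at 0.0564, Sdf2l1 at 0.19, Creld2 at 0.0172 and Manf at 0.0159. Without SC_ConD 2 and 3 Pdia6 was at 0.34, Sdf2l1 at 2.03, Creld2 at 1.07, Manf at 1.67 and Clpp at 0.49. With single libraries left out, Pdia6 ran from -0.20 to 0.28, Dnajb9 from -0.22 to 0.22, Sdf2l1 from -1.07 to 0.52, Creld2 from -0.68 to 0.24 and Manf from -0.96 to 0.56.

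In SF_HPD against SF_ConD, Pdia4 was at -0.00811 with median-of-ratios scaling and at -0.0417 with limma-voom, which gave -0.0243 for Hsp90b1. With the length trend as a covariate Hyou1 was at -0.0444, Pdia4 at -0.0156 and Manf at 0.0208. Without the lymphoid-rich libraries Hyou1 was at -0.36, Sdf2l1 at 0.86 and Manf at 0.61. With single libraries left out, Hspa5 ran from -0.36 to 0.13, Hyou1 from -0.20 to 0.28, Hsp90b1 from -0.0650 to 0.15, Pdia4 from -0.16 to 0.16, Dnajb9 from -0.37 to 0.0310, Sdf2l1 from -0.75 to 0.13, Manf from -0.70 to 0.18 and Hspd1 from -0.23 to 0.0867.

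In SF_HPD against SC_ConD, TPM gave 0.14 for Pdia4 and 0.0908 for Dnajb9. Without SC_ConD 2 and 3 Dnajb9 was at 0.31, Sdf2l1 at 1.76, Creld2 at 0.70, Manf at 1.47 and Clpp at 0.54. Without the lymphoid-rich libraries Hspa1b was at 0.0274. With single libraries left out, Pdia4 ran from -0.31 to 0.0189, Dnajb9 from -0.41 to 0.0499, Sdf2l1 from -1.35 to 0.24 and Manf from -1.16 to 0.37. The replicate number as a block changed no call: 0 genes passed in each comparison, Hspa5 was at -1.18 and -1.29 against SC_ConD in SF_ConD and SF_HPD, and Pdia6 turned to 0.00103 in SF_ConD. Of the 11 correlations between same-numbered libraries 4 were the highest for their library.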
